A study of Mus musculus with 2 samples.

Results

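The 7 genes Eomes, Nes, Vim, Hes1, Hes5, Mki67 and Top2a mark neural progenitors or dividing cells, and they were taken by symbol from the GENCODE annotation of the mouse genome build mm10, which holds 21938 protein-coding genes on the 21 chromosomes covered. Their chromatin was read from DNase-seq of the frontal cortex, a method that sequences the ends left where the nuclease DNase I cuts DNA exposed between nucleosomes. Samples were from female B6CASTF1/J mice, the F1 cross of C57BL/6J and CAST/EiJ, at 25 days of age, with nuclei isolated from the tissue. There was 1 group of 2 libraries, replicate 1 and replicate 2, and no second condition. The libraries are labelled as separate biological replicates from separate biosamples but carry a single donor identifier, so their spread is a spread between samples and need not be one between animals, and no test between groups was possible. In such bulk tissue, fewer cells with an open site and less cutting per cell cannot be told apart.

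Neural progenitors of the embryonic cortex, the radial glia, carry the intermediate filament proteins nestin (Nes) and vimentin (Vim), and Notch signalling keeps them from differentiating through the repressors Hes1 and Hes5. Their daughters, the intermediate progenitors, switch on the T-box factor Eomes (also called Tbr2) before they become neurons. Mki67 encodes Ki-67, which coats the chromosomes of cells in division, and Top2a encodes topoisomerase II alpha, which untangles replicated chromosomes. Cortical neurons have left the cell cycle by this age, while glial cells and their precursors still divide, and Vim, Hes1 and Hes5 are also known in glia.

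A peak is an interval that the authors called as open in 1 library, and its value is the authors' read-depth normalized signal, which describes and ranks peaks within a list. A promoter counted as open in a library when a peak touched the stretch from 1 kb before to 1 kb after any annotated transcription start site (TSS) of the gene, and its promoter value was that of the strongest such peak. A footprint is a short stretch that the authors called as protected from cutting. Counts of footprints in windows and promoters include those outside called peaks. There were 85603 peaks and 214072 footprints in replicate 1 and 87847 peaks and 189951 footprints in replicate 2. The sequencing depth is not given in the sources used here, but peak values moved in steps of 0.00565 in replicate 1 and 0.00571 in replicate 2. The lowest promoter value among the 7 genes was 133 steps in replicate 1 and 149 in replicate 2, and the highest was 934 and 665. The promoters of marker genes were read beside the labelled tissue. Open in both libraries were 6 of 6 pan-neuronal, 4 of 4 excitatory and 4 of 4 inhibitory neuron markers. The counts were 3 of 5 for astrocytes, 3 of 4 for oligodendrocyte precursors, 1 of 4 for oligodendrocytes and 1 of 4 for mural cells. They were 1 of 4 for microglia, 1 of 4 for ependyma, 0 of 4 for endothelial cells and 0 of 4 for liver. Among all protein-coding genes 61.5% were open in both libraries, so such small counts do not show which cell types were present.

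Of the 7 genes, 5 had an open promoter in both libraries, namely Top2a, Hes1, Hes5, Mki67 and Vim. The share among all protein-coding genes was 61.5% (13489 of 21938), so a count of 5 in 7 lies close to the background. The Nes promoter was open in replicate 1 only, a pattern of 2.62% of protein-coding genes, and Eomes had none in either library, as did 34.5% of protein-coding genes. The same 5 genes had an open promoter by the authors' shorter, stricter peak list of each library, against 55.6% of protein-coding genes, and a promoter footprint in both libraries, against 60.1%. The promoter values were in the order Top2a, Hes1, Hes5, Mki67 and Vim. The values of Hes5 and Mki67 overlapped between the libraries, while those of every other pair of neighbours in that order were apart. Top2a and Hes1 lay above the median over genes with an open promoter, which was 2.16 in replicate 1 and 2.34 in replicate 2, and the other 3 lay below it in both libraries.

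**Figure D1:**
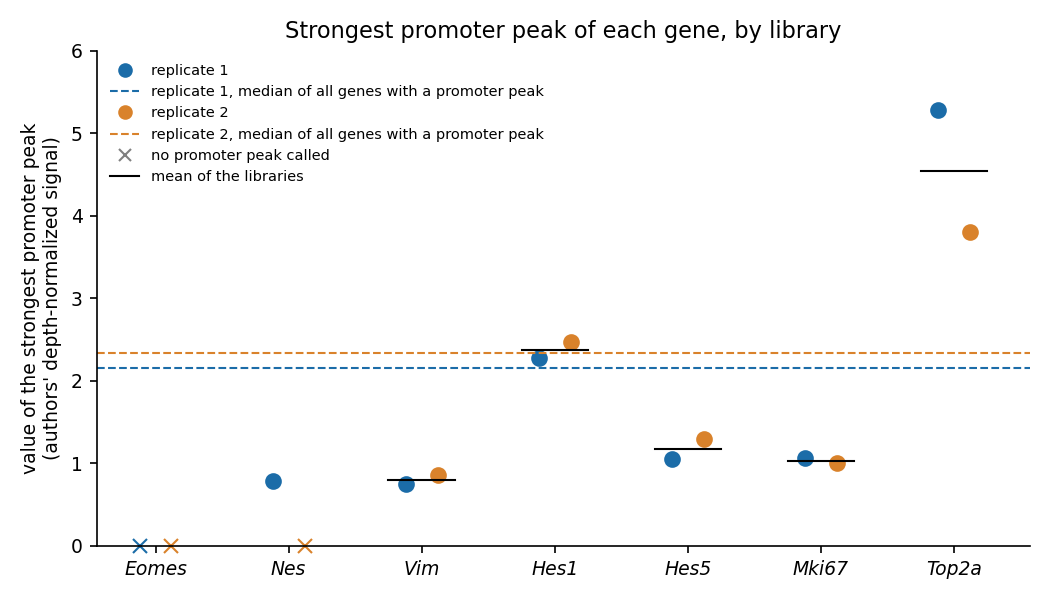
Value of the strongest promoter peak (authors' depth-normalized signal, vertical axis) of each of the 7 genes in replicate 1 (blue) and replicate 2 (orange). Black bars are means of the libraries, crosses mark libraries with no promoter peak, and dashed lines are the medians of 2.16 and 2.34 over all genes with an open promoter; Top2a stands highest at 5.28 and 3.80, and Eomes has no point.

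Top2a had the most open promoter of the 7 genes. The gene lies on chromosome 11 from 98992943 to 99024189 on the minus strand (ENSMUSG00000020914.17) with 7 annotated TSS, and a single promoter region, at the annotated 5' end, was called in both libraries. Its value was 5.28 in replicate 1 and 3.80 in replicate 2, a mean of 4.54 ± 1.05 (SD, n = 2). That put Top2a at percentile 96.1 of genes with an open promoter in replicate 1 and at percentile 74.2 in replicate 2. The library values were 1.39-fold apart, 0.47 on the log2 scale, while the median over genes open in both libraries was -0.15 and 16.0% of those genes were farther apart in either direction. The cut rate table of the authors gave a lowest false discovery rate of 6.81e-40 in replicate 1, 74 bases before the TSS, and 2.23e-25 in replicate 2, 87 bases before it.

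The promoter region of Top2a is shown because its footprints covered almost the same bases in both libraries. It is the mm10 reference sequence upstream of the TSS (chr11:99024190-99024400, minus strand), and capitals mark bases inside a footprint in both libraries.
Top2a: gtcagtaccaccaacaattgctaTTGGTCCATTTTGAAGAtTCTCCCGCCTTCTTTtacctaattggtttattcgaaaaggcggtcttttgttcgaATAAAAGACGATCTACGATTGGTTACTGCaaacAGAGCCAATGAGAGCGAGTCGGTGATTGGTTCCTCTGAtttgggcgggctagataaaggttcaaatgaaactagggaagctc
Of these 211 bases, 99 lay in footprints of both libraries. The letters CCAAT, the box bound by the factor NF-Y, occurred 6 times on either strand in the 300 bases before the TSS, and 3 of these matches lay wholly inside a footprint of each library. Those 3 began 98, 78 and 58 bases before the TSS and so stood 20 bases apart. CCAAT was present in 39.6% of all protein-coding promoters of that length and occurred at least 6 times in 27 of 21938. Of the 7 genes, Top2a alone had a CCAAT match wholly inside footprints of both libraries. Such a match was held by 2.08% of protein-coding genes and by 3.39% of those open in both libraries. At least 3 such matches were held by 3 of 21938 promoters. This count was made after the Top2a sequence had been seen and is a description of these libraries. The letters TTTGAA, a form of the cell cycle homology region (CHR) through which cell cycle genes are repressed in resting cells, began 179 and 23 bases before the TSS and were in 17.0% of promoters. The match at 179 lay inside a footprint of each library and that at 23 in none. The variant TTCGAA, in 1.98% of promoters, began 140 and 120 bases before the TSS, the SP/KLF letters GGGCGG, in 44.5%, 41 bases before it and the SOX letters AACAAT, in 10.4%, 199 bases before it, all outside footprints or across their edges.

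Beyond the promoter, the Top2a window, which is the gene body with 20 kb on either side, held 8 peaks in replicate 1 and 6 in replicate 2. Each of the 7 regions other than the promoter lay nearer to the TSS of another protein-coding gene, either Gjd3 or Igfbp4. The strongest, on chromosome 11 from 98975461 to 98975640, had values of 2.21 and 2.02, and its nearest coding TSS was that of Gjd3 at 7465 bp. The gene body past the promoter region held no peak in either library.

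Mki67 lies on chromosome 7 from 135689784 to 135716361 on the minus strand (ENSMUSG00000031004.8) and has 2 annotated TSS. Its promoter value was 1.06 in replicate 1 and 0.999 in replicate 2, a mean of 1.03 ± 0.0446 (SD, n = 2), at percentiles 23.1 and 19.1. Both libraries thus put Mki67 among the weaker open promoters and far below Top2a. The promoter windows held 1 footprint in replicate 1 and 3 in replicate 2, against medians of 7 and 6 over genes open in both libraries. The promoter region of Mki67 is shown for comparison with that of Top2a, since it holds CCAAT and TTTGAA letters too (chr7:135716421-135716720, minus strand, capitals as above).
Mki67: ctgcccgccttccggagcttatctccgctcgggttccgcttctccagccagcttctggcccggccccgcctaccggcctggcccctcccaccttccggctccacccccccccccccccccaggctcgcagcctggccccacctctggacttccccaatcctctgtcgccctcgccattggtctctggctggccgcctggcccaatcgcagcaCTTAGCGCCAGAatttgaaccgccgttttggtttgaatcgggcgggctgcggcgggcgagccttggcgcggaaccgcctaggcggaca
The letters CCAAT began 206, 184 and 159 bases before the Mki67 TSS, a number of matches that 4.23% of promoters reached, and none of the 3 lay in a footprint of either library. TTTGAA began 134 and 116 bases before the TSS, also outside footprints. With promoter values far below those of Top2a and few footprints in all, missing footprints here are not shown to mean missing protection. The 1 footprint shared by the libraries, the 12 capital letters, stops 1 base before the first TTTGAA.

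A region upstream of Mki67 was more open than its promoter. It lies on chromosome 7 from 135735681 to 135736020, centred 19490 bp before the 5' end, and had values of 1.60 and 1.34, a mean of 1.47 ± 0.186 (SD, n = 2). No other protein-coding TSS was nearer, and 3 of 3 footprints of replicate 1 there overlapped one of replicate 2. Inside the gene, the sole peak was one of 0.491 in replicate 2, in an exon 16827 bp from the 5' end. The whole window held 4 peaks in replicate 1 and 5 in replicate 2, near the median of 4 per gene window in each library.

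Hes1 and Hes5 were the most densely surrounded by open regions of the 7 genes. Hes1 lies on chromosome 16 from 30064384 to 30067796 on the plus strand (ENSMUSG00000022528.8) with 4 annotated TSS, of which the first belongs to a noncoding transcript and that at chr16:30065340 to the coding one. Its promoter value was 2.28 in replicate 1 and 2.47 in replicate 2, a mean of 2.37 ± 0.134 (SD, n = 2), at percentiles 52.8 and 52.4. The strongest peak lay over the TSS of the coding transcript. The window held 15 peaks in replicate 1 and 8 in replicate 2, or 34.6 and 18.4 per 100 kb, against medians over protein-coding genes of 5.29 and 5.10. That put Hes1 at percentiles 99.3 and 95.4, and 8 of the peaks of replicate 1 and 5 of those of replicate 2 were at its own promoters.

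The peaks at Hes1 merged into 12 regions, 8 of them shared by the libraries and 4 in replicate 1 only. None was nearer to the TSS of another protein-coding gene. After the region at the coding TSS, the strongest were one near the 3' end of the gene, centred 2767 bp from the annotated 5' end, with 2.25 and 1.81, and one 153 bp before that end, with 1.73 and 1.51. A downstream region 6087 bp from the 5' end had 0.887 in replicate 1 and 1.28 in replicate 2. The 4 regions of replicate 1 alone were weak, between 0.429 and 0.497. The promoter windows held 28 footprints in replicate 1 and 17 in replicate 2.

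Hes5, on chromosome 4 from 154960923 to 154962371 on the plus strand (ENSMUSG00000048001.7), has 2 annotated TSS and a weaker promoter. Its value was 1.06 in replicate 1 and 1.29 in replicate 2, a mean of 1.17 ± 0.165 (SD, n = 2), at percentiles 22.9 and 26.5. The promoter region spans 989 bp and also lies within 1 kb of a TSS of the noncoding gene Gm20421, so its openness cannot be assigned to Hes5 alone. Footprints there differed between the libraries, with 11 in replicate 1 and 2 in replicate 2, and none of the 11 overlapped one of replicate 2. Over the whole Hes5 window, 14 of 44 footprints of replicate 1 overlapped one of replicate 2. The share over all footprints of the genome was not counted. Overlaps of footprints given for regions of any of the 7 genes therefore have no background. The promoter regions of Hes1 and Hes5 are shown since both are direct Notch targets, activated through the DNA-binding protein RBPJ (Hes1 chr16:30065101-30065339 and Hes5 chr4:154960623-154960922, plus strand, capitals as above).
Hes1: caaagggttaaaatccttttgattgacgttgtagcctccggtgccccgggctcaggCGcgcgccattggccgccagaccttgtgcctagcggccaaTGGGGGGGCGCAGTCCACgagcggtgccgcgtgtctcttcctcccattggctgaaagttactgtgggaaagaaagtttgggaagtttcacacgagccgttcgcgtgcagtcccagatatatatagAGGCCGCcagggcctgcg
Hes5: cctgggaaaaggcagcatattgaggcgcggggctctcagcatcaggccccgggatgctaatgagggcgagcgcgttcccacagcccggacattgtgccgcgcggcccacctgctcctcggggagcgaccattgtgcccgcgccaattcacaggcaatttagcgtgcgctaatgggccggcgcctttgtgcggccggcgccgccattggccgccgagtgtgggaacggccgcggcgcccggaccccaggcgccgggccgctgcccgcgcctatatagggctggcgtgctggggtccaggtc
Within the 300 bases before the TSS that were searched, the RBPJ letters TGGGAA, present in 25.3% of promoters, occurred at 2 places in each of these genes and in none of the other 5. The Hes5 stretch printed here begins upstream of the searched bases and holds the letters again near its 5' end, at a place that is not counted. In Hes1 they began 80 and 66 bases before the coding TSS, and in Hes5 274 and 130 bases before the TSS at 154960971. No counted TGGGAA match of either gene lay in a footprint of either library. Letters without a called footprint are not shown to be unprotected. CCAAT occurred 3 times before Hes1 and 2 times before Hes5, in no case wholly inside a footprint. The widest shared footprint before Hes1 begins within the CCAAT box 147 bases before the TSS. It ends, in replicate 1, inside the letters CACNAG 128 bases before the TSS, which the footprint of replicate 2 covers whole. These letters are an N box of the kind that Hes proteins bind, and 41.3% of promoters hold them. They also began 161 and 54 bases before the Hes1 TSS and 265 and 30 bases before the Eomes 5' end, all outside footprints. Hes5 had no base in a shared footprint. Of the other letters searched, GCGGGAA (E2F, in 5.87% of promoters), CACGTG (E box, 7.49%), TATAAA (found in 12.8%), TGANTCA (AP-1, 6.92%) and TGACGTCA (CRE, 2.38%) were not in these 300 bases of any of the 7 genes.

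**Figure D2:**
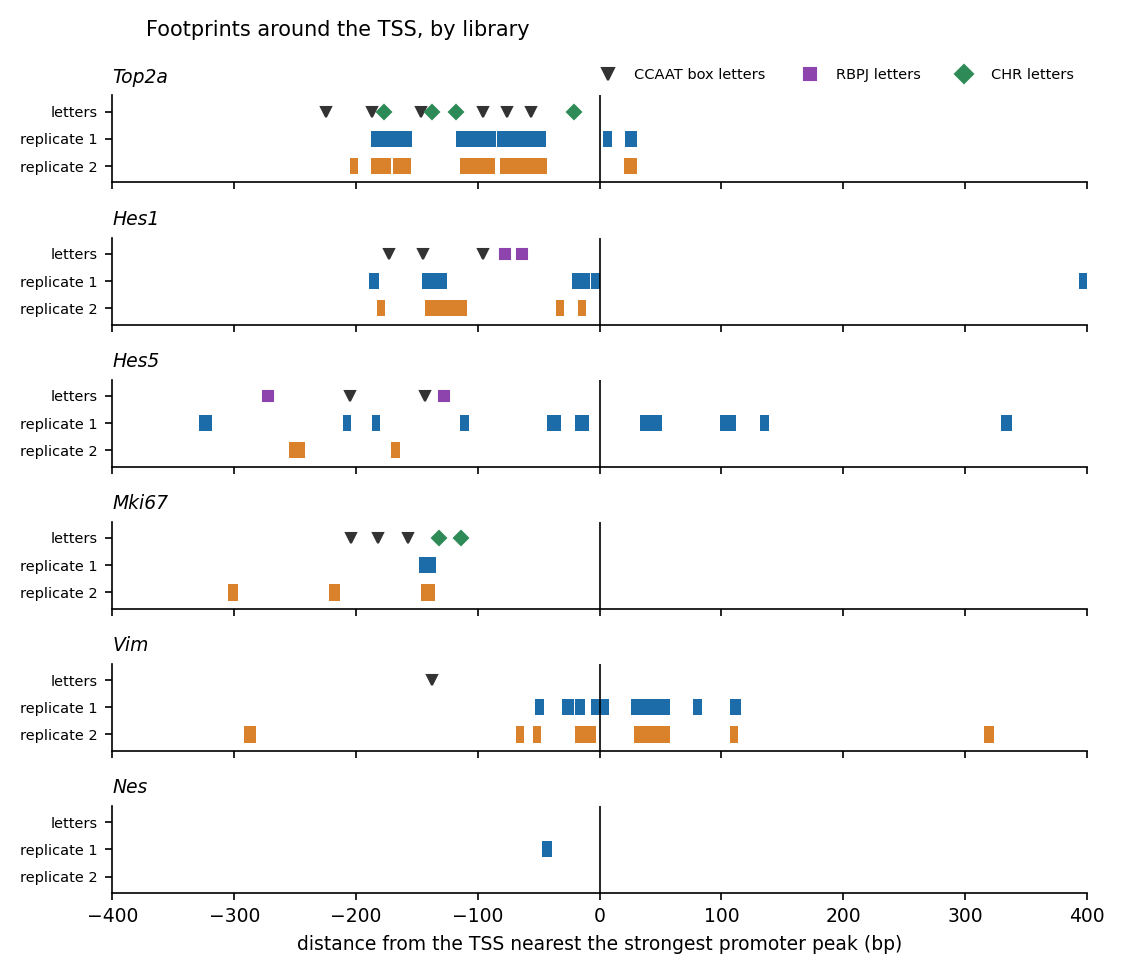
Footprints of replicate 1 (blue bars) and replicate 2 (orange bars) around the TSS nearest the strongest promoter peak of 6 genes, by distance in bp in the direction of transcription, with CCAAT, RBPJ and CHR letters marked above where they occur in the 300 bases before the TSS. Wide footprints of both libraries cover 3 of 6 CCAAT matches in Top2a, while the CCAAT matches of Mki67 and Hes5 lie outside shared footprints. Top2a also had the highest promoter value, so missing footprints at the other genes are not shown to mean missing protection.

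The density around Hes5 was high in both libraries. Its window held 14 peaks in replicate 1 and 12 in replicate 2, or 33.8 and 29.0 per 100 kb, at percentiles 99.3 and 98.8. Of its 11 merged regions 10 were called in both libraries. The strongest, with 2.45 and 2.75, lay 118 bp from the TSS of the neighbouring gene Pank4, and 5 of the 11 were nearer to another protein-coding gene. Of the regions nearer to Hes5, those called in both libraries lay 14362, 12530, 3434 and 2524 bp upstream and at the promoter itself. The region 3434 bp upstream, on chromosome 4 from 154957257 to 154957720, had 1.06 in replicate 1 and 1.03 in replicate 2, close to the promoter values. The region 14362 bp upstream had 1.12 and 0.839.

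Vim, on chromosome 2 from 13573927 to 13582826 on the plus strand (ENSMUSG00000026728.9), had the lowest promoter value of the 5 genes open in both libraries. It was 0.752 in replicate 1 and 0.851 in replicate 2, a mean of 0.801 ± 0.0702 (SD, n = 2), at percentiles 14.1 and 14.8. Another promoter region centred 512 bp past the 5' end was weaker, at 0.559 and 0.588, and one 259 bp before it was called in replicate 2 only, at 0.457. The strongest region of the gene lay outside the promoter windows, in an exon centred 1774 bp past the 5' end (chromosome 2 from 13575621 to 13575780), with 1.51 and 1.35 and a mean of 1.43 ± 0.118 (SD, n = 2). Both libraries thus had a higher value inside Vim than at its starts. Of the 7 footprints of replicate 1 in the promoter region at the 5' end, 5 overlapped one of replicate 2. No peak was called in either library within 20 kb downstream of the gene, and upstream of the promoter there was 1 peak, of 0.383 in replicate 2.

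Nes had an open promoter in 1 library only. The gene lies on chromosome 3 from 87971078 to 87980451 on the plus strand (ENSMUSG00000004891.16) and has 3 annotated TSS. In replicate 1 it had a promoter peak of 0.780 centred 46 bp before the 5' end and one of 0.701 centred 779 bp before it, and in replicate 2 it had none. Neither peak of replicate 1 was in the stricter list, though the larger was at percentile 14.9 of open promoters, beside 14.1 for Vim in that library. The lowest false discovery rate of the cut rate in the promoter windows was 0.0126 in replicate 1, and the table of replicate 2 lists no position there. Tables of both libraries list promoter positions for 62.3% of protein-coding genes, and the 5 genes open in both libraries are among those. The gene body of Nes past its start held no peak in either library. Nestin is a defining protein of radial glia, and its neural expression is known to depend on an enhancer in an intron, where no peak was called.

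The open regions near Nes belonged more to its neighbours by position. The strongest, on chromosome 3 from 87987021 to 87987200 and centred 16033 bp past the 5' end, had 3.21 in replicate 1 and 3.32 in replicate 2, a mean of 3.27 ± 0.0804 (SD, n = 2). Its nearest coding TSS was that of Bcan, which encodes the brain matrix proteoglycan brevican, at 7344 bp. A region 10037 bp upstream of Nes had 1.11 and 1.67 and lay nearest Crabp2. A peak of 0.851 in replicate 2, 29313 bp past the 5' end, lay at the start of Bcan. Of the 6 merged regions in the window, 2 were called in both libraries.

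Eomes had no open promoter. The gene lies on chromosome 9 from 118478212 to 118486132 on the plus strand (ENSMUSG00000032446.14) with 3 annotated TSS. Neither library had a peak or a footprint within 1 kb of any of them or anywhere in the gene body, and the cut rate tables list 0 positions in either place. These tables stop at a false discovery rate of 0.05, so lower cutting there was not detectable and is not shown to be absent. The 1 kb around the 5' end holds 47 CpG dinucleotides, and of the 2194 protein-coding genes in the same bin of 10 equal bins by CpG count, with 41 to 53, 87.7% were open in both libraries. For the other genes the corresponding shares were 93.0% for Nes with 70 CpG, 69.4% for Vim with 40, 94.4% for Hes1 with 85, 95.4% for Hes5 with 94 and Mki67 with 98, and 90.6% for Top2a with 55. Eomes and Nes were thus not open in both libraries while most genes of like CpG count were.

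The Eomes window held 2 regions, both called in both libraries. The farther one, at its edge, had 3.67 and 2.87 and lay 66 bp from the TSS of Golga4. The nearer one lay 11639 bp past the 5' end, beyond the 3' end of the gene, and had 1.45 in replicate 1 and 0.742 in replicate 2, a mean of 1.10 ± 0.502 (SD, n = 2). It also lies within 1 kb of a TSS of the antisense gene Gm33460. The sequence of this region is shown because it is the sole open site in the window whose nearest coding TSS is that of Eomes (chr9:118489761-118489940, plus strand, capitals as above).
Eomes downstream region: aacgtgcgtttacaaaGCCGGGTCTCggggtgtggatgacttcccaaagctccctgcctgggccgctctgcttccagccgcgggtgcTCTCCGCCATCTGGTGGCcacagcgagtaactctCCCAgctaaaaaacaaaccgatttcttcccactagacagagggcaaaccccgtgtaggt
All 3 footprints of replicate 1 in it overlapped one of replicate 2. The longest of them holds letters of the core motif of CTCF, the factor that anchors chromatin loops. This core was searched for after the sequences had been seen, on both strands, and was found in the 180 bp at the centre of 9 of the 50 regions around the 7 genes, 18.0%, against 8.76% of all 109538 regions and 12.6% of those called in both libraries. Scanned at full width, 10 of the 50 regions held the core. In 4 of them it lay wholly inside footprints of both libraries. These were the Eomes region and the region of 3.21 and 3.32 near Nes. The others were the Hes5 region 16452 bp upstream and the region of 2.21 and 2.02 near Top2a. How many of all regions hold the core inside footprints was not counted, so the 4 cannot be read against a background.

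**Figure D3:**
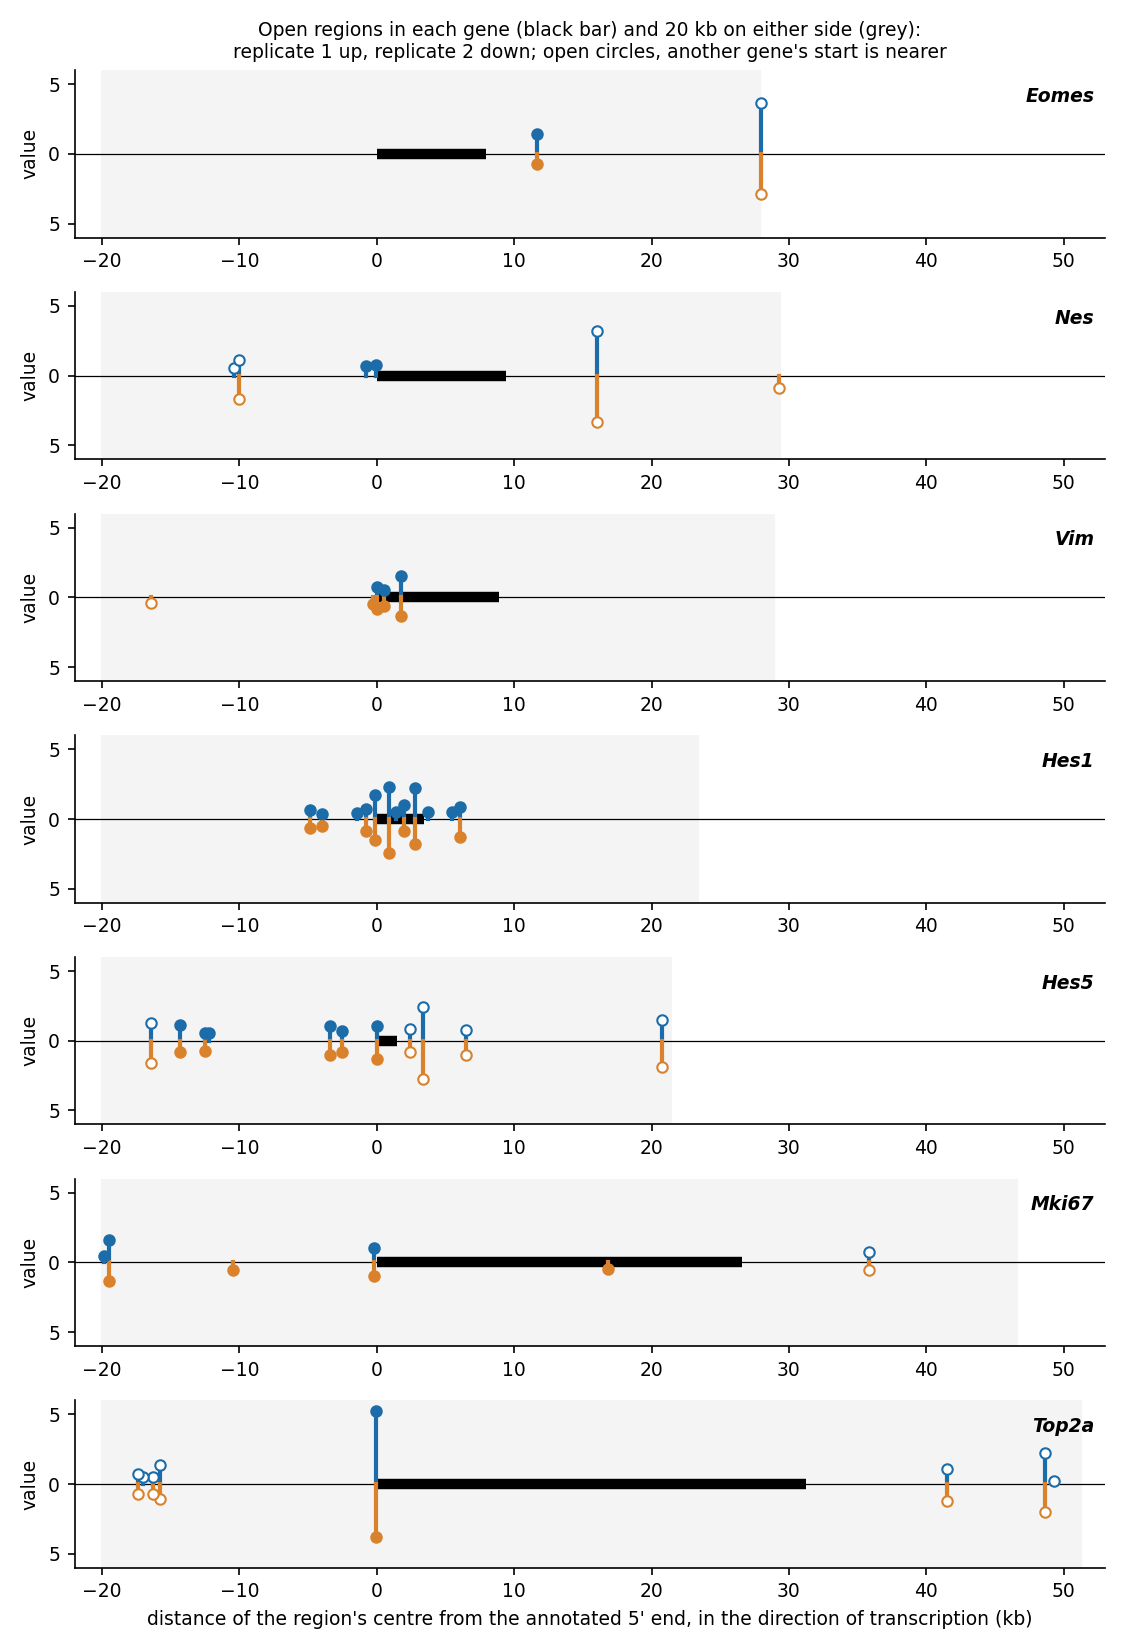
Open regions in the body of each gene (black bar) and 20 kb on either side (grey), by distance of the region's centre from the annotated 5' end in kb; stems show the peak value in replicate 1 upwards and in replicate 2 downwards, and open circles mark regions nearer to another protein-coding TSS. Hes1 and Hes5 have 12 and 11 regions, Eomes has 2 and none in its body, and the Top2a promoter stands alone at 5.28 and 3.80.

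Over the 7 windows together there were 50 merged regions, and 34 of them (68.0%) were shared by the libraries, against 53.6% of the merged regions of the genome. Of the others, 11 were of replicate 1 and 5 of replicate 2. Promoter regions numbered 14, and 10 of them were shared. For 19 of the 50 regions the nearest protein-coding TSS was that of another gene, most often around Top2a, Hes5 and Nes. None of the 50 had a near-identical copy elsewhere in the genome, at 90% identity or more over at least 80% of the region.

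The genes that work with these 7 were read from 8 lists, which were chosen with results of these data known. Of 139 genes, 130 were open in both libraries, read against 61.5% of protein-coding genes, and the median promoter value was 2.34, the same to 2 decimals as over all genes open in both. Every gene of DNA replication (23 of 23), of mitosis (30 of 30), of cell cycle exit and the DREAM repressor complex (16 of 16), of intermediate filaments (8 of 8) and of topoisomerases (5 of 5) was open in both. The medians were 2.90 for replication, 2.94 for mitosis, 2.34 for exit and DREAM, 1.43 for intermediate filaments and 4.91 for topoisomerases. The replication genes were led by the helicase subunits Mcm5 (6.54 ± 0.968, SD, n = 2) and Mcm4 (6.12 ± 1.21, SD, n = 2) and by Gins2 (5.93 ± 1.22, SD, n = 2), though the Mcm4 peak is also at the start of Prkdc. The mitosis genes were led by Ect2, which positions the cleavage furrow (6.25 ± 0.773, SD, n = 2), by the phosphatase gene Cdc25c (5.34 ± 0.337, SD, n = 2) and by the spindle midzone gene Prc1 (5.33 ± 0.807, SD, n = 2). Mki67 at 1.03 thus lay well below the mitosis median, near its lowest member Aurkb at 1.01, and Top2a at 4.54 lay above it.

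Among topoisomerases, the promoter of Top2b, the form that neurons use, had 4.85 in replicate 1 and 5.35 in replicate 2, that of Top1 5.11 and 4.92, and that of the mitochondrial enzyme gene Top1mt 4.68 and 5.14. Top2a was above all 3 in replicate 1, at 5.28, and below all 3 in replicate 2, at 3.80. The cell cycle inhibitor gene Cdkn2d led the exit list at 6.65 ± 1.49 (SD, n = 2), with the DREAM genes Lin37 at 4.72 ± 1.08 and Rbl2 at 3.91 ± 0.322 (SD, n = 2). CCAAT letters stood in the 300 bases before 24 of 30 mitosis genes and 15 of 23 replication genes. The counts were 15 of 27 for the Notch pathway, 9 of 20 for radial glia and 4 of 10 for intermediate progenitors. They were 5 of 16 for exit and DREAM, 1 of 8 for intermediate filaments and 3 of 5 for topoisomerases. The share over all genes open in both libraries was 39.1%. Matches wholly inside footprints of both were found for 2 mitosis genes, Ube2c and Hmmr, and for 2 Notch pathway genes, Numb and Numbl. They were also found for Cdkn2d of the exit list and Fabp7 of the radial glia list, 1 gene each. No gene of the other lists, replication included, had such a match. The share over genes open in both was 3.39%, and no gene of the 8 lists had more than 2 such matches. The Hmmr promoter peak is also at the start of Nudcd2. Among intermediate filament genes the strongest were Synm at 2.91 ± 0.143, the neurofilament gene Nefh at 2.08 ± 0.457 and the astrocyte filament gene Gfap at 1.62 ± 0.498 (SD, n = 2), all above Vim.

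Of the Notch pathway, 22 of 27 genes were open in both libraries, with a median of 1.69. The strongest were the transcription factor gene Rbpj at 5.98 ± 0.675, the Notch inhibitor gene Numb at 5.89 ± 2.47 and the Hes-related gene Hey2 at 5.07 ± 0.427 (SD, n = 2), all above Hes1. The receptor genes Notch4 at 4.65 ± 0.717, Notch2 at 2.43 ± 0.0502 and Notch1 at 0.675 ± 0.188 (SD, n = 2) were also open in both. So was the Hes-related gene Hey1 at 3.43 ± 0.0295 (SD, n = 2). The receptor gene Notch3, the ligand gene Dll4, Heyl and Hes3 had no promoter peak in either library. Hes7 had 0.576 in replicate 1 only, in a peak that is also at the start of the coding gene 9130213A22Rik. Of the radial glia and stem cell list, 18 of 20 genes were open in both libraries with a median of 1.39, led by the inhibitors of differentiation Id1 at 2.78 ± 0.438 and Id4 at 2.53 ± 0.521 and the RNA-binding protein gene Msi1 at 2.40 ± 0.516 (SD, n = 2). Sox3 had 0.457 in replicate 2 only and Prom1 had 0.401 in replicate 1 only. Of the intermediate progenitor list, 8 of 10 were open in both, with the lowest median of the 8 lists, 0.818. Its strongest were the stress and activity genes Gadd45g at 3.62 ± 0.886 and Btg2 at 3.40 ± 0.503, with the receptor gene Sstr2 at 1.33 ± 0.103 (SD, n = 2). Neurod4 had none, like Eomes, and the proneural gene Neurog2 had 0.379 in replicate 1 only, like Nes.

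**Figure D4:**
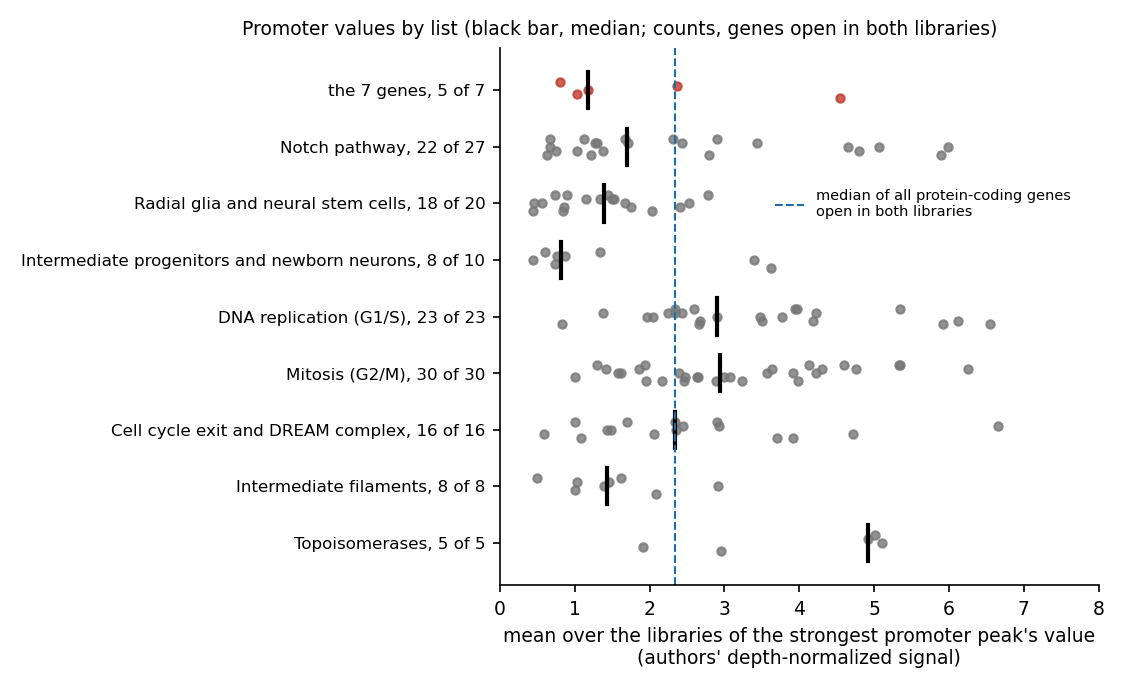
Mean over the libraries of the strongest promoter peak's value (authors' depth-normalized signal, horizontal axis) for the 7 genes (red) and 8 companion lists (grey), 1 point per gene open in both libraries, with counts of such genes at the left. Black bars are medians and the dashed line is the median of 2.34 over all protein-coding genes open in both libraries; the medians run from 0.818 for intermediate progenitors to 4.91 for topoisomerases.

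The companion gene most like each of the 5 genes in promoter value and number of promoter footprints was found over 130 candidates, by Euclidean distance over 4 log2 values (both measures in both libraries, 1 added to each). It was Ube2c, an enzyme of mitotic exit, for Top2a at a distance of 0.399, the Notch target Hey1 for Hes1 at 0.843, the cell cycle inhibitor gene Cdkn2c for Hes5 at 0.341, the stem cell factor gene Sox2 for Mki67 at 0.349 and the Notch ligand gene Jag1 for Vim at 0.509. These distances rest on 2 libraries and describe likeness of these 4 numbers alone.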

How the data were processed

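DNase-seq peaks, footprints and cut rates were used as deposited for 2 libraries of 1 group. The libraries' own deposited text files name mm10 and a separate alignment for each, so peaks were called per library. Column 7 of the peak lists is the authors' read-depth normalized signal on a scale that is not stated, and 100% of values lay within 0.1 of a whole step. For the cut rate, the authors deposited q-values (false discovery rates) of positions at or under 0.05, and the authors' footprint lists hold a constant p-value-like threshold of 0.01. Names of the aligner and callers were not given in the sources used here. The longer of the 2 peak lists of a library was the main list.

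Intervals were matched by at least 1 bp overlap to GENCODE vM21 on GRCm38.p6, the build of mm10, with Python 3.11.15, numpy 2.4.6 and pandas 2.3.3. Of 55413 annotated genes, 21938 are protein-coding. Regions are overlapping peaks of both libraries merged, and copies were searched with blastn 2.17.0. Letters of 12 motifs were searched on both strands in the 300 bases before the TSS nearest the strongest promoter peak (the 5' end where there was none), and a match lay in a footprint when all its bases did. Matches may overlap one another. With CCAAT matches that only touch footprints counted too, Top2a had 4, Hes1 had 1, and 4.72% of genes had any. Sequences are of the reference genome, so alleles of CAST/EiJ are not shown, and they stop before annotated untranslated regions. The scripts were tested on simulated data.

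The 7 genes, the lists and the rules were chosen with earlier results of these data known. The genes named were the 7, for each list up to 3 with the highest promoter value, up to 3 with no promoter peak in list order and each with a peak in 1 library only, and the most like companion of each. Aurkb, the genes of the lists with CCAAT matches inside footprints, and the CTCF core were named after their values were seen. Notch1, Notch2, Notch4 and Hes3 were named outside these rules. With 1 group of 2 libraries no test was made, and values are given with their SD. Alternatives varied the promoter window, the TSS, the peak list, the overlap rule, the flank and the libraries used.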

Additional observations from a re-analysis of the deposited data

How the results depend on the processing

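The count of 5 genes open in both libraries was the same with promoters of 500 bp and 2.5 kb on either side, with the annotated 5' end only, with the stricter peak list, with peak centres, with peaks of at least the median value and without peaks near another coding TSS. Replicate 1 alone gave 6, with Nes added, and replicate 2 alone gave 5. The 130 companion genes ranged from 112 to 133. Counts over the 7 windows depend on what is assigned to a gene: a mean of 46 peaks per library fell to 12 in gene bodies only, to 28.5 where the nearest coding TSS had to be the gene's own and to 29.5 with the stricter list, and was 43.5 with overlapping peaks of a library merged, an alternative added after seeing the data. A mean of 127.5 footprints fell to 30 in gene bodies and to 83.5 with the nearest TSS rule. It was 116 where a footprint had to overlap a peak of its library. Peaks were 51 in replicate 1 and 41 in replicate 2, footprints 144 and 111. With promoters of 2.5 kb the value of Vim became 1.43, that of its exon region. The mean values of Hes1, Hes5, Mki67 and Top2a did not move under the other promoter windows, the stricter list or peak centres, nor did that of Vim under the rest of these. With 2 libraries, leaving out either gives the value of the other, which is no check of stability. The main limits are that 2 libraries allow no test, that depth and the value scale are not stated, and that openness is not expression.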
